A study of Mus musculus with 12 samples.

Results

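The 9 genes described here, Ebf1, Clint1, Lsm11, Thg1l, Sox30, Nipal4, Med7, Havcr2 and Sgcd, lie on both sides of Adam19 on mouse chromosome 11. They were chosen by name for their position, out of 55679 genes in the gene table, and Cyfip2, another neighbour, was left out of the set. Lung and heart of 6 male 129S6/SvEvTac mice were compared, 3 wild type (WT) and 3 homozygous for the Adam19-tdTomato allele (KO), which gave 12 libraries of stranded total RNA from whole frozen organs. In the KO allele, Adam19 exons 6 and 7 were replaced by tdTomato, a red fluorescent protein gene, and an antisense hygromycin resistance cassette, in every cell of the animal. WT and KO mice carry identifiers with different prefixes, and whatever those prefixes mark cannot be told apart from genotype. The comparison asks whether the genes around the inserted cassette were at other levels in KO than in WT tissue.

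Adam19 encodes a membrane-anchored metalloprotease that sheds the extracellular parts of other membrane proteins. An inserted cassette brings its own promoter and ends of transcription into a locus, and genes beside a targeted gene are therefore usually inspected before a change is ascribed to the loss of that gene. The neighbours have unrelated functions. They encode a B cell and mesenchymal transcription factor (Ebf1), an endosomal clathrin adaptor (Clint1), a processing factor of histone messenger RNA (Lsm11), an enzyme that adds a guanosine to histidine transfer RNA (Thg1l), a male germ cell transcription factor (Sox30), a membrane protein of the magnesium transporter family known from skin (Nipal4), a subunit of the Mediator complex (Med7), the immune receptor TIM-3 (Havcr2) and the muscle membrane protein delta-sarcoglycan (Sgcd).

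Adam19 spans chr11:45946775-46038172 on the forward strand of GRCm39. On its start side, in order of distance, lie Sox30 (chr11:45871054-45908824, forward strand, 38.0 kb away), Thg1l (chr11:45837670-45846342, reverse, 100.4 kb), Lsm11 (chr11:45819091-45835787, reverse, 111.0 kb), Clint1 (chr11:45742749-45801452, forward, 145.3 kb) and Ebf1 (chr11:44508138-44898918, forward, 1047.9 kb). On its end side lie Nipal4 (chr11:46038982-46057395, reverse strand), which ends 810 bases after the end of Adam19, then Med7 (chr11:46326422-46339429, forward, 288.3 kb), Havcr2 (chr11:46345673-46374149, forward, 307.5 kb) and Sgcd (chr11:46787080-47879796, reverse, 748.9 kb). Both genes next to Adam19, Sox30 and Nipal4, were close to absent in these organs, and the other 7 were measured well in at least 1 of them.

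The replaced exons are shown because they define the altered site. Exon 6 (chr11:46003584-46003776) and exon 7 (chr11:46004450-46004515) hold 259 coding bases together, all in capitals, on the forward strand of GRCm39.
Adam19 exon 6: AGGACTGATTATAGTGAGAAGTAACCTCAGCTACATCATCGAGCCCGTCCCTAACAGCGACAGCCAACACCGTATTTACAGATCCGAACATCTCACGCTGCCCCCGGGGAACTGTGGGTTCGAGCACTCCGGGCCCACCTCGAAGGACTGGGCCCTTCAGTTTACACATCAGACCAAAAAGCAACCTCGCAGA
Adam19 exon 7: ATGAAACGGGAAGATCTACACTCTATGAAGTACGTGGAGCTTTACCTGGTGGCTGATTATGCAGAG

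The promoters of Thg1l and Havcr2, whose KO and WT libraries separated in the heart, are given as the 250 bases before the annotated start (GENCODE vM39). The Thg1l promoter is chr11:45846343-45846592 on the reverse strand and the Havcr2 promoter is chr11:46345423-46345672 on the forward strand, with motif matches in capitals.
Thg1l promoter: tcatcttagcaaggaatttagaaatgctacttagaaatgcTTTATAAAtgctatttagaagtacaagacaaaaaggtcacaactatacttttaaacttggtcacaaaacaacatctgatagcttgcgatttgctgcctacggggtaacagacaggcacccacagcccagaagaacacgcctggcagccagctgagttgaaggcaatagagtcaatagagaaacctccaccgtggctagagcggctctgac
Havcr2 promoter: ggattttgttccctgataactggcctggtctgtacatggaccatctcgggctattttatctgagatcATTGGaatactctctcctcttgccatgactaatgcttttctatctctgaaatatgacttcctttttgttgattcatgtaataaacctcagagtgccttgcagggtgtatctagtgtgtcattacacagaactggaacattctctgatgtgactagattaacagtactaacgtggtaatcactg
Both strands were searched for TATAAA (the core of the TATA box), CCAAT (the CCAAT box) and GGGCGG (the GC box). The Thg1l promoter holds TATAAA on both strands, in a single overlapping stretch, as do 12.1% of 1618 chromosome 11 promoters on at least 1 strand. The Havcr2 promoter holds CCAAT on its reverse strand, a motif present in 34.7% of those promoters. With 43.6% and 40.4% G+C these were the lowest among the 9 members, against a chromosome median of 53.2%, and Lsm11 was highest with 63.2%. The matches are descriptions of the letters in these windows.

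The libraries held 17674788 to 28043361 estimated counts in the lung and 18392292 to 35862932 in the heart. Of the gene values summed off the log2 scale, the small cytoplasmic RNA Rn7s1 took 2.10% to 34.0% in the lung and 2.70% to 11.8% in the heart. All 10 lung epithelial markers were higher in WT lung than in WT heart and all 10 heart muscle markers lower, at an adjusted p under 0.05, as the labels say. Levels are given as the authors' normalized value, on a log2 scale. Adam19 had normalized values of 9.12 to 9.41 in WT and 3.21 to 4.44 in KO lungs, and 9.17 to 10.27 in WT and 6.01 to 6.67 in KO hearts, with 909 to 1253 and 675 to 1235 estimated counts in WT against 0.918 to 3.52 and 7.40 to 12.1 in KO. The tdTomato construct had values of 10.34 to 11.13 in KO lungs and 10.78 to 11.60 in KO hearts and was at 0 in WT libraries, apart from WT heart 1 at 2.16 (3.07 estimated counts).

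None of the 7 neighbours that could be tested differed between KO and WT in either tissue at an adjusted p under 0.05 (limma, Benjamini-Hochberg over all genes). The background was 0.0906% of 16551 genes in the lung and 0.098% of 15303 genes in the heart. At an unadjusted p under 0.05 the counts were 0 of 7 in the lung, where 5.93% of all genes passed, and in the heart, where 7.46% passed, 1 of the 6 members other than Havcr2 (Thg1l). Havcr2 also had an unadjusted p under 0.05 in the heart, but only KO hearts brought it past the filter on low values, so a difference was a condition of its being tested and it is not counted here. The median KO minus WT difference of the 7 was −0.15 in the lung and −0.08 in the heart on the log2 scale (−0.09 in the heart without Havcr2), beside 0.01 and 0.03 over all genes tested, and 5 of the 7 differences were negative in each tissue. KO and WT libraries did not overlap for 1 of 7 in the lung (Thg1l, lower), against 12.8% of all genes, and for 1 of those 6 in the heart (Thg1l, lower), against 13% of all genes, with Havcr2 separated too (higher). With 3 mice against 3, an exact two-sided permutation test cannot give a p below 0.10.

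**Figure D1:**
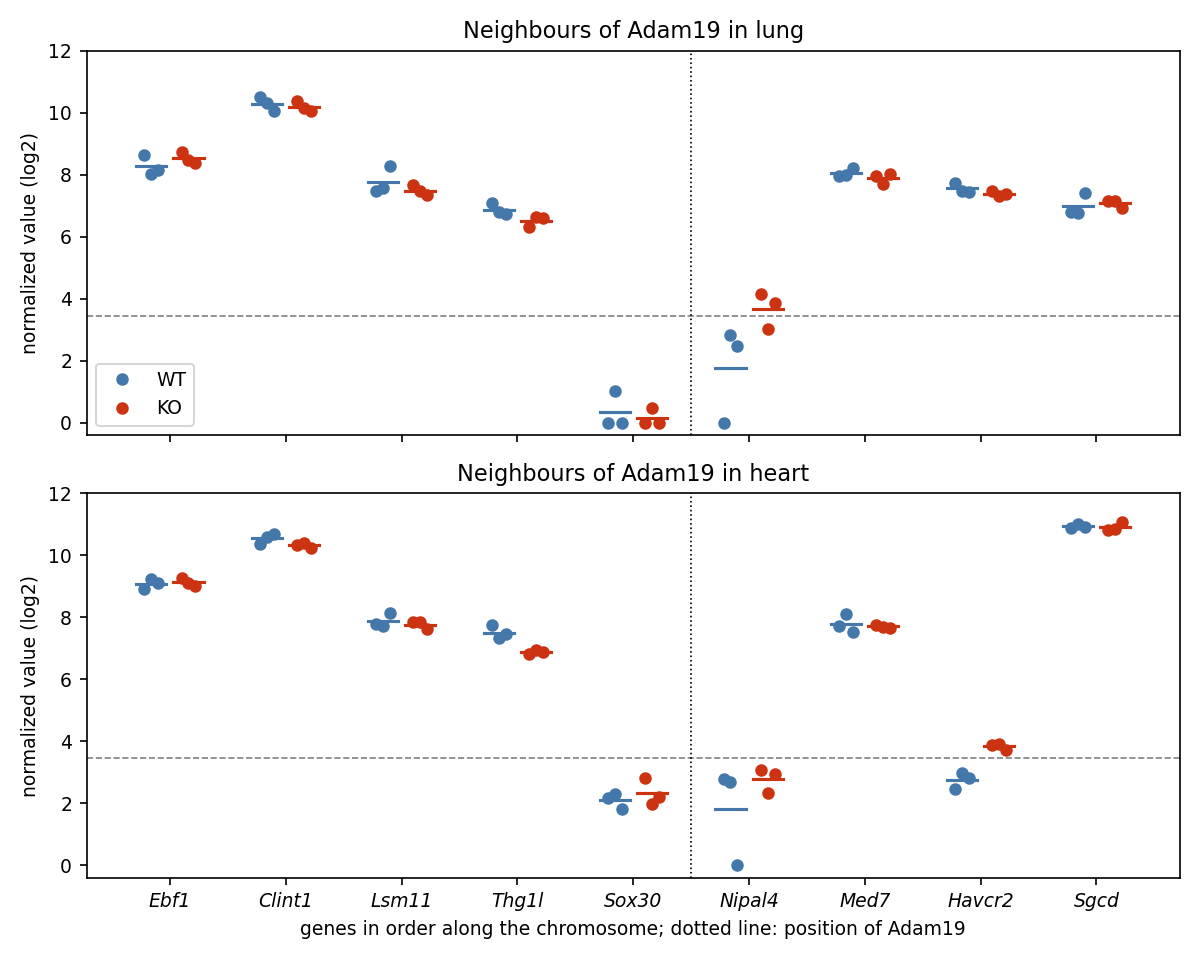
Normalized value (log2) of each neighbour in every library of lung (top) and heart (bottom), WT in blue and KO in red, with a bar at the mean of 3 mice. The dashed line marks the filter of 3.46, which Sox30 and Nipal4 did not pass, and the KO points of Thg1l lie below its WT points in both tissues.

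Thg1l was the one neighbour whose KO values lay below all WT values in both tissues. In the heart, WT libraries had normalized values of 7.75, 7.32 and 7.45 and KO libraries 6.80, 6.96 and 6.89. Every KO heart was thus below the lowest WT heart, by at least 0.36. The mean difference was −0.62 (SE 0.19, 95% interval −1.05 to −0.20, n = 3 mice per genotype), or 1.54-fold lower, with an unadjusted p of 0.00863 and an adjusted p of 0.535 (limma). In the lung, WT values were 7.10, 6.79 and 6.72 and KO values 6.30, 6.63 and 6.61. These also did not overlap, but the gap was 0.09 and the difference of −0.36 (SE 0.22, interval −0.86 to 0.14) had an adjusted p of 0.841 (limma). The exact permutation p was 0.10 in each tissue. The scaling between libraries added 0.79 and 0.80 to WT hearts 2 and 3 and −0.11 to −0.067 to the other 4 hearts. Without it the Thg1l difference was −0.038 in the heart and −0.097 in the lung, while the median difference of all genes moved to 0.62 and 0.27. Of 14330 genes tested in both tissues, 125 (0.872%) had no overlap in both tissues and the same direction in both. Of these, 39 (0.272% of the 14330), Thg1l among them, were lower in KO. The genotype difference in the lung minus that in the heart was 0.27 (interval −0.34 to 0.87, limma, adjusted p = 0.815). In bulk tissue, fewer cells of a type and less RNA per cell cannot be told apart.

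Most Thg1l reads were assigned to its full-length protein-coding transcript, ENSMUST00000011398.13, with 92.5% ± 7.20 (SD, n = 3) of the gene's estimated counts in WT hearts and 99.3% ± 1.20 in KO hearts, and 90.6% ± 2.93 in WT and 78.8% ± 14.8 in KO lungs, the lowest being 61.7% in KO lung 3. This transcript was lower in KO by 0.70 on the log2 scale in the lung (an unadjusted p of 0.0490, adjusted p = 0.812) and by 0.33 in the heart (adjusted p = 0.811). With the estimated counts of all its transcripts summed in place of the authors' gene value, the Thg1l difference was −0.49 in the lung and −0.43 in the heart. The order of the tissues thus depended on how transcripts were combined, while the sign did not.

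Havcr2, the receptor TIM-3 of T cells and myeloid cells, was well measured in the lung and barely present in the heart. WT lungs had normalized values of 7.74, 7.48 and 7.45 and KO lungs 7.48, 7.30 and 7.38, which overlapped, with a difference of −0.17 (SE 0.18, limma, adjusted p = 0.880). WT hearts had values of 2.47, 2.98 and 2.82 and KO hearts 3.89, 3.92 and 3.72. The KO hearts were all higher, but the values stand for 3.13 to 4.59 estimated counts per WT heart and 13.4 to 15.3 per KO heart. Havcr2 passed the filter on low values only through the KO hearts, so a difference was built into its being tested. The fitted difference was 1.09 (SE 0.48, interval 0.0035 to 2.17, limma, adjusted p = 0.667), and it was 0.43 with a pseudocount of 16. Without the filter the limma interval was −0.055 to 2.23.

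The Havcr2 reads of WT hearts 1 and 2 were all assigned to a second transcript, ENSMUST00000109229.2, and those of WT heart 3 and of all KO hearts to ENSMUST00000020668.15, which also held every Havcr2 read of the lungs. With so few reads no isoform difference was detectable at this depth. The genotype difference in the lung minus that in the heart was −1.26 (interval −2.01 to −0.50, limma, an unadjusted p of 0.00330, adjusted p = 0.502). It rests on the same few heart counts, and ran from −1.44 to −0.59 over alternatives that kept all libraries. All 10 macrophage and dendritic cell markers were above 0 in each group, and their summed level was 11.52 to 11.83 in WT and 11.69 to 11.90 in KO hearts. The 7 T and NK cell markers summed to 4.93 to 5.39 in WT and 5.06 to 5.46 in KO hearts. Both pairs of ranges overlapped. Of the 5 macrophage and dendritic cell markers tested in the heart, 4 had a positive difference (median 0.14) and none an adjusted p under 0.05. Itgax, the largest of these 5 differences, was named after its values were seen. It had values of 3.396, 4.33 and 3.53 in WT and 4.61, 6.30 and 4.60 in KO hearts. The difference was 1.42 (limma, an unadjusted p of 0.0274, adjusted p = 0.634). The values stand for 3.73 to 9.48 estimated counts per WT heart, and KO heart 2 held 92.9. Of the markers on this list that did not pass the filter, Chil3 and Marco had lower means in KO hearts. These were 3.91 in WT and 3.47 in KO hearts for Chil3, and 1.80 and 0.94 for Marco. All 8 lung epithelial markers tested had positive differences in the heart (median 0.71, none with an adjusted p under 0.05), and the 10 on that list summed to 12.54 to 12.9965 in WT and 12.78 to 13.24 in KO hearts, which overlapped. The part of such cells or of lung RNA in the Havcr2 values was not tested.

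Nipal4, the neighbour nearest to the end of Adam19, did not pass the filter. Its lung values were 0, 2.83 and 2.48 in WT and 4.17, 3.02 and 3.87 in KO. All 3 KO lungs were above all 3 WT lungs (exact permutation p = 0.10), on 0 to 5.72 estimated counts per WT lung and 10.9 to 19.8 per KO lung. In the heart the values were 2.78, 2.70 and 0 in WT and 3.08, 2.34 and 2.96 in KO, and the groups overlapped. When no filter was applied, the limma difference in the lung was 1.92 (interval 0.10 to 3.73, an unadjusted p of 0.0405, adjusted p = 0.860). At that setting 1527 of 28728 genes had an unadjusted p under 0.05 in the lung. In the heart the limma difference was 0.97 (adjusted p = 0.837). Sox30, the nearest neighbour on the start side, was listed at 0 in 2 of 3 lungs of each genotype, with 1.04 in WT lung 2 and 0.47 in KO lung 2. Its heart values were 1.83 to 2.30 in WT and 1.99 to 2.82 in KO, on 1.08 to 6.75 estimated counts, and overlapped. At these depths no difference in Sox30 was detectable.

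The other 5 neighbours, on either side of the locus, had overlapping KO and WT libraries in both tissues. Lsm11, which with Lsm10 is part of the U7 particle that processes histone messenger RNA, differed by −0.29 in the lung and −0.11 in the heart. Clint1, an adaptor between clathrin and SNARE proteins, had normalized values of 10.05 to 10.70 over all libraries and differed by −0.11 and −0.22. Ebf1, the master regulator of early B cells that is also made in fat cells and pericytes, differed by 0.25 and 0.05. Med7, in the middle part of Mediator, the bridge between transcription factors and RNA polymerase, differed by −0.15 and −0.08. Sgcd, part of the sarcoglycan complex that ties the muscle cell membrane to its surroundings, differed by 0.08 and −0.03. The adjusted limma p of these 10 differences lay between 0.740 and 0.964.

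**Figure D2:**
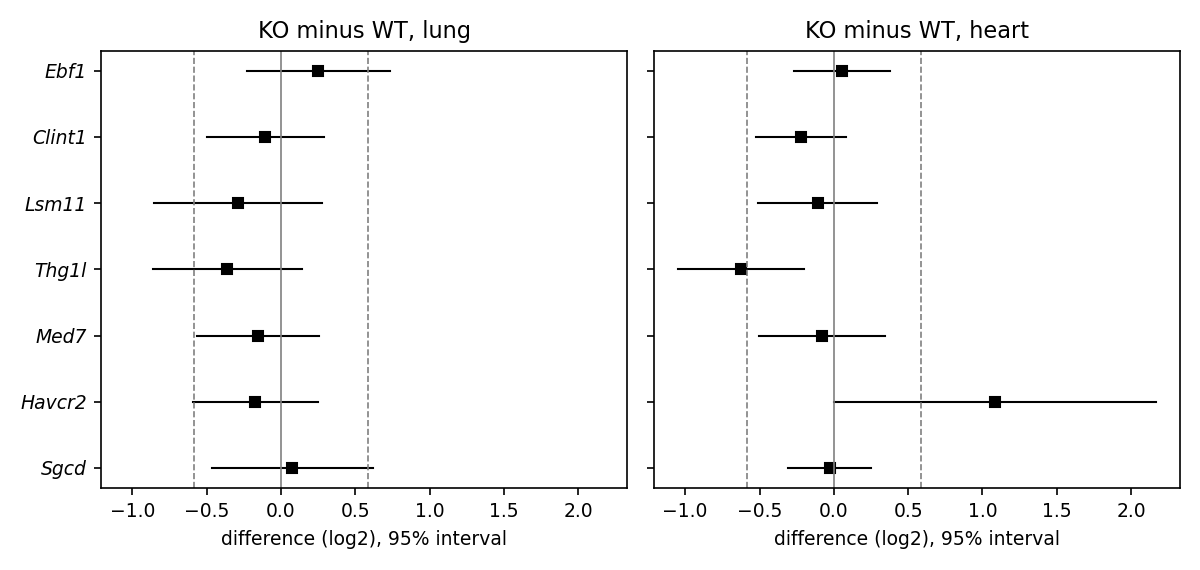
KO minus WT difference (log2, square) with its 95% interval (line) for the 7 neighbours tested, in lung (left) and heart (right), from limma with 3 mice per genotype. The dashed lines mark a 1.5-fold difference, and the interval leaves 0 for Thg1l and Havcr2 in the heart, without adjustment over genes. Havcr2 was tested in the heart only because KO hearts passed the filter. Without the filter its interval was −0.055 to 2.23, which includes 0.

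The intervals show which differences these libraries could still miss. In the heart the 95% intervals of 5 of the 7 members (Ebf1, Clint1, Lsm11, Med7 and Sgcd) lay inside a 1.5-fold difference in either direction (0.58 on the log2 scale). The narrowest was that of Sgcd, from −0.31 to 0.25. In the lung this held for 2 of the 7 (Clint1 and Med7), and the interval of Lsm11 reached −0.85 and that of Ebf1 0.73. The lung intervals of the other 5 included a 1.5-fold difference in at least 1 direction.

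Within 2 Mb of either end of Adam19 the gene table lists 60 genes, the members included, and 13 of them passed the filter in lung and 14 in heart. In the lung, 0 had an adjusted p under 0.05, and their differences ran from −0.57 to 0.39, with a median of −0.15. In the heart, 2 did, and neither is among the 9 members. Cyfip2, a subunit of the actin-regulating WAVE complex whose end is 46.4 kb from the end of Adam19, had normalized values of 9.22 to 9.91 in WT and 12.01 to 12.54 in KO hearts, a difference of 2.70 (limma, adjusted p = 0.000985), and 8.78 to 9.06 in WT and 9.31 to 9.40 in KO lungs. Gm12167, a long noncoding RNA 194.8 kb after the end of Adam19, had 4.19 to 4.42 in WT and 6.80 to 7.46 in KO hearts, a difference of 2.75 (limma, adjusted p = 0.00558). Without overlap were 1 gene higher and 3 lower in the lung (30.8% of 13) and 4 higher and 2 lower in the heart (42.9% of 14), against the 12.8% and 13% of all genes given above. Havcr2 is among the 4 higher heart genes, and for it a difference was a condition of being tested. For the other window genes near the filter this was not examined, so these shares are descriptions only. Nipal4 lies between Adam19 and Cyfip2, and Med7 and Havcr2 lie beyond Gm12167. The heart difference of Med7, −0.08, had an interval of −0.50 to 0.34, and that of Havcr2 was 1.09 on the few counts given above.

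**Figure D3:**
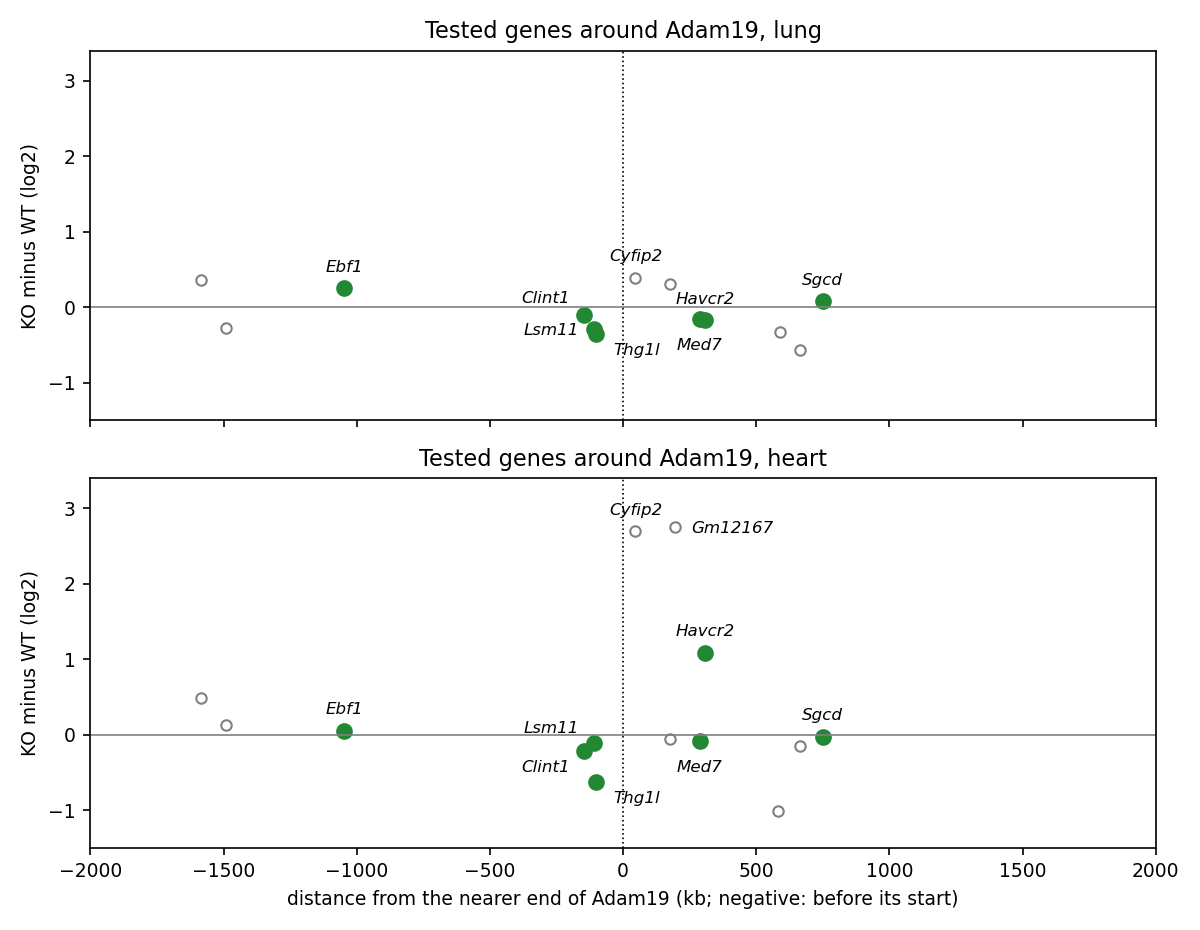
KO minus WT difference (log2) of each tested gene against its distance in kb from the nearer end of Adam19 (dotted line), in lung (top) and heart (bottom), with members as filled points and other genes as open points. In the heart Cyfip2 and Gm12167 stand at 2.70 and 2.75, while the members tested on the same side, Med7, Havcr2 and Sgcd, are at −0.08, 1.09 and −0.03.

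At the level of transcripts, 34 member transcripts are listed, of which 15 passed the filter in lung libraries and 14 in those of the heart. None had an adjusted limma p under 0.05, against 0.0841% of 36845 lung and 0.0626% of 31931 heart transcripts, and at an unadjusted p under 0.05 the counts were 1 of 15 in the lung, where 6.1% of all transcripts passed, and 1 of 13 in the heart, where 5.74% passed. Left out of the heart count is ENSMUST00000020668.15 of Havcr2, which only KO hearts brought past the filter. The lung transcript was that of Thg1l given above, and the heart transcript was ENSMUST00000081265.12, the main one of Ebf1. Its values were 8.61, 8.55 and 8.45 in WT and 8.89, 8.92 and 8.81 in KO hearts, a difference of 0.34 (an unadjusted p of 0.0298, adjusted p = 0.811), while the Ebf1 gene differed by 0.05. It held 72.8% ± 6.17 of the gene's estimated counts in WT and 80.1% ± 4.88 in KO hearts. All 8 smooth muscle and pericyte markers were above 0, and their summed level was 14.64 to 14.74 in WT and 15.04 to 15.19 in KO hearts, without overlap. Single markers differed unevenly in the heart, by 0.017 to 1.38. The means in WT and KO hearts were 13.39 and 13.44 for Rgs5 and 8.10 and 9.38 for Cnn1. The part of such cells in the Ebf1 values was not tested.

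Havcr2 and Sgcd had opposite tissue patterns, and the other 5 members tested differed between the organs by less than 1 on the log2 scale. Of the 7, 4 differed between WT lung and WT heart at an adjusted p under 0.05 (limma), a share no higher than the 67.4% of all 17666 genes. Havcr2 was higher in the lung by 4.80 (SE 0.25, adjusted p = 3.94e-09), or by 3.22 with a pseudocount of 16 (WT hearts held 3.13 to 4.59 counts), and Sgcd was lower (−3.94, SE 0.18, adjusted p = 1.38e-09), 15.4-fold. Ebf1 was lower in the lung, with a difference of −0.79 (adjusted p = 0.00165), and so was Thg1l, with −0.63 (adjusted p = 0.0127), a call that was lost without WT heart 1 (−0.51, adjusted p = 0.0595). Clint1, Lsm11 and Med7 differed by −0.25, −0.10 and 0.26, with adjusted p from 0.146 to 0.710. In KO mice, 3 of the 7 differed (67.2% of all genes), namely Havcr2 (3.55), Sgcd (−3.84) and Ebf1 (−0.60), while Thg1l differed by −0.37 (limma, adjusted p = 0.117). In no member did the genotype difference itself differ between tissues at an adjusted p under 0.05, as it did in 1 gene of 17666 (0.00566%). At an unadjusted p under 0.05, 1 of the 7 (Havcr2) did, and 7.88% of all genes.

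Per transcript length, the levels of the members spread widely. In WT lungs Clint1 was highest with 360 ± 57.6 scaled estimated counts per kb (SD, n = 3), above all others. The ranges of each next pair in the order overlapped for Sgcd (75.7 ± 20.0), Havcr2 (68.2 ± 7.80), Ebf1 (56.8 ± 12.4), Thg1l (56.7 ± 7.94), Med7 (56.6 ± 6.23) and Lsm11 (36.0 ± 12.6). Nipal4 (1.02 ± 0.90) and Sox30 (0.096 ± 0.166) lay far below them and overlapped each other. In WT hearts Sgcd led with 1176 ± 52.9, followed without overlap by Clint1 (430 ± 52.0). Ebf1 (104 ± 11.6) and Thg1l (88.4 ± 13.3) overlapped each other, as did Med7 (42.1 ± 13.1) and Lsm11 (36.9 ± 6.11). Havcr2 (1.88 ± 0.27), Nipal4 (1.03 ± 0.91) and Sox30 (0.95 ± 0.30) were lowest, each overlapping the next.

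**Figure D4:**
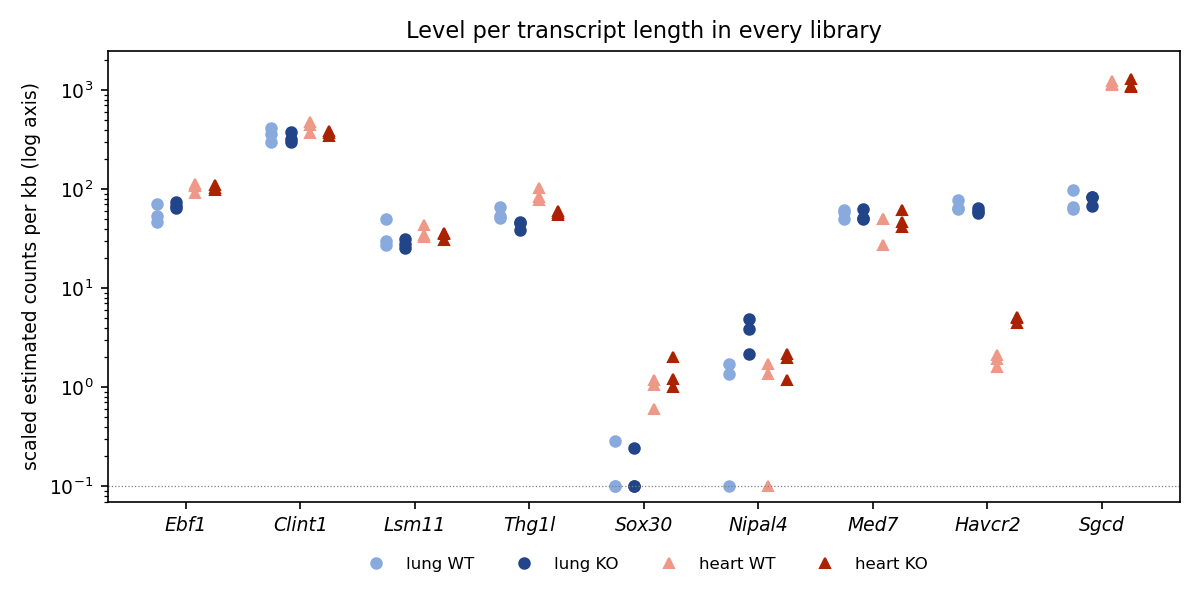
Scaled estimated counts per kb of transcript (log axis) of each member in every library, lung as circles and heart as triangles, WT in the lighter and KO in the darker shade. Points on the dotted line are libraries at 0. Sgcd in hearts lies between 1078 and 1301, far above its lungs, and Havcr2 shows the opposite order.

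The partners of the members were looked at in the same way. No gene of any partner list had an adjusted limma p under 0.05 between KO and WT in either tissue. Between WT lung and WT heart, 41.2% of all genes were higher in the lung and 26.1% lower, and the following counts stand beside these shares. Of the sarcoglycan and dystrophin complex, 13 of 14 genes were tested, and between WT lung and WT heart 5 were higher and 8 lower, among them Sgca (−6.52), a muscle partner of Sgcd. Of 32 Mediator genes, 9 were higher in WT lung and 8 lower, with Med12l (−2.76) and Med16 (−1.64) farthest apart. Of 15 tested genes of histone messenger RNA processing, 4 were higher (Casp8ap2, 1.09) and 2 lower (Sympk, −1.09). Of 17 endosomal clathrin adaptors, 5 were higher and 6 lower, led by Gga2 (−1.86) and Epn1 (−1.47). Of 5 tested TIM receptors and ligands, 4 were higher, with Havcr1 (4.14) and Ceacam1 (1.44) farthest apart, and 1 lower. Of 5 genes of the Nipal4 family, 4 were higher (Nipal1, 6.55, and Nipal2, 5.75), and of 11 tested SOX genes 6 were higher (Sox2, 6.36, and Sox11, 3.91) and 3 lower.

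The list of EBF factors and B cell targets of Ebf1 had 8 genes higher in WT lung (Vpreb3, 6.23) and 2 lower (Ebf3, −5.05) of 10, beside 41.2% and 26.1% of all genes. Between KO and WT lungs its 9 tested genes had a median difference of 0.40, with 8 positive, beside 0.01 over all genes, and none passed the test. The 6 B cell markers, 4 of them also in that list, summed to 11.06 to 11.78 in WT and 11.93 to 12.15 in KO lungs, without overlap, and their part in the Ebf1 difference of 0.25 was not tested.

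The genes whose normalized values followed those of each member most closely were ranked over the 12 libraries. Among 17666 genes, Pearson's r was highest for Sgcd with Gm10053 (0.999) and Mipep (0.999) and for Havcr2 with Tmem100 (0.997) and Rassf7 (0.997). Among the members tested, Sgcd (−3.94) and Havcr2 (4.80) also differed most between WT lung and WT heart. Ebf1 was closest to Ebf3 (0.953) and Rps2-ps5 (0.952), and Thg1l to Gm10069 (0.932). Med7 was closest to Rab6a (0.919) and Srek1 (0.909), Clint1 to Taf11 (0.906) and Ppard (0.898), and Lsm11 to Utp6 (0.904) and Sf3b3 (0.902). These are descriptions over libraries that share mice and tissues.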

How the data were processed

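Lung and heart RNA of the 6 mice was sequenced by the authors on stranded libraries, 1 per organ, and quantified with Salmon against GENCODE vM33 transcripts of mm39, the assembly GRCm39. The deposited gene table holds log2 values with a scaling between libraries whose method is not given in the sources used here, and the deposited transcript table holds log2(1 + estimated count). In genes with 1 transcript the gene value is the transcript value plus a constant of the library (−0.63 to 0.80). Gene values of genes with several transcripts are not their summed counts. Estimated counts per kb were multiplied by that scaling, chosen after the data were seen because Rn7s1 took an uneven share of the lung libraries.

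Samples were grouped by their labels, and lung and heart of a mouse share a number. Over genes, the deviations of both organs of a mouse from their groups correlated at 0.049, 0.136 and −0.024 in WT mice and at 0.020, −0.068 and −0.036 in KO mice. limma 3.58.1 (R 4.3.3, lmFit and eBayes with a trend) compared genotypes within a tissue, and tissues in a model of 4 group means, over genes at 3.46 (log2 of 11) or more in at least 3 libraries. Thresholds were an adjusted p under 0.05, a 1.5-fold difference and a highest group mean of at least 6. The tests were tried on simulated data. On average 30.75 of 100 genes changed 2-fold were recovered in the lung and 48.75 of 100 in the heart. For 100 genes changed 4-fold these were 79.25 and 84.25, and false calls averaged 11.125 in the lung and 8.125 in the heart. The simulated noise had a spread smoothed over the level of genes, not the spread of each gene. Alternatives changed the filter, scaling, pseudocount, trend, fit, replicate block and libraries. Coordinates are from GENCODE vM39 (99.0% of genes matched). No member had a near-identical copy (blastn 2.17.0, 95% over 500 bases). The genes named are Adam19, its construct, the 9 members, window genes with an adjusted p under 0.05, up to 2 genes per partner list and up to 2 of the closest genes per member, and some items are not reported here. Members and lists were chosen with earlier results of these data known.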

Additional observations from a re-analysis of the deposited data

Results flagged for a closer look

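Cyfip2, the neighbour left out of the set, was the 1 gene whose KO minus WT difference differed between lung and heart (0.39 against 2.70, difference −2.31, SE 0.26, limma, adjusted p = 0.0212). The adjusted p was under 0.05 in 9 of 17 alternatives. With the mouse as a replicate block it was 0.142, and over all alternatives it ran from 0.00171 to 0.142 while the difference stayed between −2.50 and −2.15.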

How the results depend on the processing

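No member was called between KO and WT in any of 15 alternatives in each tissue, and Thg1l was lower in KO in all of them. A call needs a highest group mean of at least 6. Havcr2 in the heart (3.84), Nipal4 (at most 3.69) and Sox30 (at most 2.34) were below it and could not be called. Of 566 alternative values of member differences, 536 kept direction and side of the threshold. Without scaling, the median of all genes moved to 0.27 in the lung and 0.62 in the heart, the genes called were 60 and 164, and the signs changed for Clint1 (0.16), Med7 (0.11) and Havcr2 (0.090) in the lung and for Clint1 (0.37), Lsm11 (0.48), Med7 (0.51) and Sgcd (0.56) in the heart, all below that shift of the median. With the filter in every library 1 and 7 genes were called, against 11 and 13 in the chosen fit, and Havcr2 was not tested in the heart. Leaving out 1 library gave 10 to 21 called genes in the heart, and ranges that crossed 0 in the lung for Clint1 (−0.23 to 0.0030) and Sgcd (−0.043 to 0.29) and in the heart for Ebf1 (−0.029 to 0.13), Lsm11 (−0.19 to 0.022), Med7 (−0.21 to 0.082) and Sgcd (−0.12 to 0.020). The count of genes whose genotype difference differed between tissues was 1, with 0 under median scaling, 6 with a pseudocount of 16 and 0 to 6 without 1 library. For members this difference crossed 0 for Clint1 (−0.0064 to 0.22), Lsm11 (−0.33 to 0.075), Med7 (−0.23 to 0.055) and Sgcd (−0.014 to 0.32) without 1 library, and for Thg1l with summed transcripts (−0.055). WT lung minus WT heart crossed 0 for Lsm11 (−0.35 to 0.059). A window of 5 Mb held 1 called lung gene (Pttg1, 4.02) against 0 and 3 called heart genes (Pttg1, 4.37, the added one) against 2. The causes were not tested.

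With the mouse as a replicate block 2 genes differed between tissues in their genotype difference, Gm10095 and Gm2296, and the block changed no call of a member. Values near the limit of 3 counts (Sox30, Nipal4 and Havcr2 in the heart) cannot show small differences.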
